A study of Mus musculus with 30 samples.

Results

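Interferon-stimulated genes, the genes that cells switch on when they sense interferon, were followed in mouse embryonic fibroblasts during conversion to muscle by MyoD. The group was given as 33 gene symbols, and 31 of them were measured here among 18193 genes of the array. Where several probe sets were annotated to 1 symbol alone, the one that was brightest on average over the 30 arrays stood for the gene. The only probe set of Isg15, a ubiquitin-like modifier, is also annotated to Gm9706, and Ifi44 had no annotated probe set here, so these 2 genes are named only.
All cells came from MyoD-/-/Myf5-/- animals, which lack a pair of factors needed to commit cells to the muscle lineage, and all carried a retrovirus. ER-MyoD wt cells expressed mouse MyoD fused to the hormone binding domain of the estrogen receptor. ER-MyoD RRR cells expressed the same fusion with lysine residues of MyoD mutated so that they cannot be acetylated. Empty retrovirus cells carried the virus with no insert and served as the negative control. RNA came from cells kept in differentiation medium with beta-estradiol, the ligand of the estrogen receptor, for 6, 12 or 24 h in all 3 constructs and also for 0 h in ER-MyoD wt. Each of the 10 groups held 3 arrays. Whether these came from separate cultures is not in the labels, so a p-value covers only the spread between arrays, which may be technical. How many cells carried the virus, and whether they were selected, is not given in the sources used here.

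Interferons bind receptors at the cell surface, whose JAK kinases phosphorylate STAT proteins. In answer to type I interferon, a complex that holds STAT2 and IRF9 binds the interferon-stimulated response element (ISRE) of antiviral genes, whereas interferon gamma acts mainly through the gamma-activated site (GAS). Fibroblasts release and answer type I interferon, and many of these genes keep a basal level in fibroblasts that depends on such autocrine signalling.

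Expression was read as 1 linear signal intensity per probe set, and as deposited every array had the same trimmed mean of 150, with medians of 38.0 to 64.1. Myod1 read 451 to 1299 in the 12 ER-MyoD wt arrays, 298 to 1155 in the 9 ER-MyoD RRR arrays and 145 to 256 in the 9 empty retrovirus arrays. Myf5, the other deleted gene, read 214 to 534, 152 to 412 and 324 to 703 in these arrays, all above the array medians. Whether either probe set lies in the deleted part of its gene is not known here, so neither checks the deletions. Of the 14 fibroblast markers, 0 had a mean signal under the lowest array median, so the labelled cell type was seen in its markers. At 24 h, 11 of 12 skeletal muscle markers were higher in each fusion than with empty retrovirus. The shares of all genes were 11.4% in ER-MyoD wt and 8.56% in ER-MyoD RRR. For 27 of 30 arrays, the most similar array belonged to the same group. ER-MyoD RRR 6 h replicate 2 was nearest to an ER-MyoD wt 6 h array and had the highest 3' to 5' signal ratio of Gapdh (2.44, other arrays 0.815 to 1.40). Empty retrovirus 12 h replicates 1 and 3 were nearest to empty retrovirus 6 h arrays, and replicate 1 had the highest median. Counts below are also given without a set of 3 arrays that an earlier account of these data set apart, namely ER-MyoD RRR 6 h replicate 2, empty retrovirus 12 h replicate 1 and ER-MyoD wt 24 h replicate 3. With so few arrays a group, precision is limited throughout.

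Promoter sequence is shown first for some of the members described below, so that the letters of the elements that interferon signalling acts through can be read there. RefSeq promoter entries (GRCm38.p6, from 250 bases before to 50 bases after a gene's start) existed for 23 of the 31 measured members. The letters of the ISRE (GAAA, any 2 bases, then GAAA), searched on both strands, occurred in 11 of these 23, namely Stat2, Ifih1, Ifit1, Ifit3, Rsad2, Eif2ak2, Bst2, Gbp2, Gbp3, Igtp and B2m. The same letters occurred in the promoters of 3.99% of the 27025 genes with an entry. The letters TTCNNNGAA of the GAS occurred in 7 of 23 members (Irf1, Ifit2, Eif2ak2, Bst2, Igtp, Psmb8 and Ifi35) and in 9.55% of all genes. A match is a description of letters and not a bound site, and the absence of a match says only that the letters are not in this window. In the stretches below, 5′ to 3′ on the strand of the gene, the capitals mark the ISRE letters or their reverse complement, and the number is the first capital's position relative to the start. They come from the 300-base windows Ifit3 chr19:34583279-34583578 (plus strand), Ifit1 chr19:34640639-34640938 (plus strand), Gbp2 chr3:142620413-142620712 (plus strand), Gbp3 chr3:142559794-142560093 (plus strand), Igtp chr11:58199306-58199605 (plus strand), Bst2 chr8:71537423-71537722 (minus strand) and B2m chr2:122147437-122147736 (plus strand).
Ifit3 at -156: gtggtaagTTTCACTTTCctcttctg
Ifit3 at -122: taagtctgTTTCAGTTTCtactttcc
Ifit1 at -104: ggcttcagTTTCACTTTCcagtctca
Ifit1 at -85: agtctcagTTTCAGTTTCtcactgct
Gbp2 at -59: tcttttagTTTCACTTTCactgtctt
Gbp3 at -45: ggacacagTTTCAGTTTCtatttccc
Gbp3 at -39: agtttcagTTTCTATTTCccagatcc
Igtp at -34: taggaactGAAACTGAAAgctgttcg
Bst2 at -130: cattccagGAAAATGAAActgaaagg
Bst2 at -124: aggaaaatGAAACTGAAAggctgcag
B2m at -139: aagaacatGAAACTGAAAatgggaaa
The 2 matches of Gbp3 overlap each other, as do those of Bst2, whose GAS letters at -136 overlap the first of them, while the GAS letters of Igtp at -45 end before its ISRE letters. Gbp3 has a second promoter window that is not shown. Ifit2 held no ISRE letters in its windows and is shown with its GAS letters in capitals, from Ifit2 chr19:34550444-34550743 (plus strand).
Ifit2 at -241: atgggagcTTCCTGGAAgaatggat

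The whole windows of Gbp2 and Igtp are printed because the signals of these interferon-inducible GTPase genes went opposite ways at 24 h, Gbp2 lower and Igtp higher in ER-MyoD wt than in empty retrovirus cells. Both hold 1 match of the ISRE letters, again in capitals, at -59 in Gbp2 and at -34 in Igtp.
Gbp2: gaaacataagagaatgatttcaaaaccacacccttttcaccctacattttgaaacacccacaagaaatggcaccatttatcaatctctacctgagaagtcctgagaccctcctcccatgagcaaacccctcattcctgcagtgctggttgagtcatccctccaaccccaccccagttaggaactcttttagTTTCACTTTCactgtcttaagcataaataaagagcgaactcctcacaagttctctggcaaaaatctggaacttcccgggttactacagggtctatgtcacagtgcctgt
Igtp: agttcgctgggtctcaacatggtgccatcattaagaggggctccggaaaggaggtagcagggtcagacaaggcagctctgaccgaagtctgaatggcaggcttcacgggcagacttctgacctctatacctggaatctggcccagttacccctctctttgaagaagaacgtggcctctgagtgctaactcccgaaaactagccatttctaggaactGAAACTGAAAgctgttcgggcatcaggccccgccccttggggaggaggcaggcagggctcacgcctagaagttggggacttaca

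Across the 10 groups, most interferon-stimulated genes had their highest mean in empty retrovirus cells at 24 h or in ER-MyoD wt cells at 24 h. The mean of 14 of 31 members was highest in the former group, where 13.1% of all genes had their highest mean. That of 8 members was highest in the latter (14.7% of all genes). In each of the other groups 0 to 2 members were highest (5.58% to 16.1% of all genes). No member had its lowest mean in empty retrovirus cells at 24 h (15% of all genes) or in ER-MyoD wt cells at 24 h (14.6%). Of the 31 members, 17 passed limma's F test for any difference among the groups (adjusted p under 0.05), as did 45.3% of all genes. The 14 that did not pass were Irf7, Irf9, Ifih1, Dhx58, Usp18, Mx2, Rsad2, Cmpk2, Oasl2, Eif2ak2, Iigp1, Psmb8, Psmb9 and Tap1. The count of highest means includes some of them. Irf9, Rsad2, Oasl2 and Tap1 were highest in empty retrovirus cells at 24 h, and Irf7, Usp18 and Mx2 in ER-MyoD wt cells at 24 h. With no filter on low values all 31 entered the tests, but 11 had a mean signal under the lowest array median of 38.0, and the deposited values hold no detection calls. In these bulk samples, fewer cells that express a gene and less RNA of it per cell cannot be told apart. The map of group means shows the block of members that were highest in empty retrovirus cells at 24 h.

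**Figure D1:**
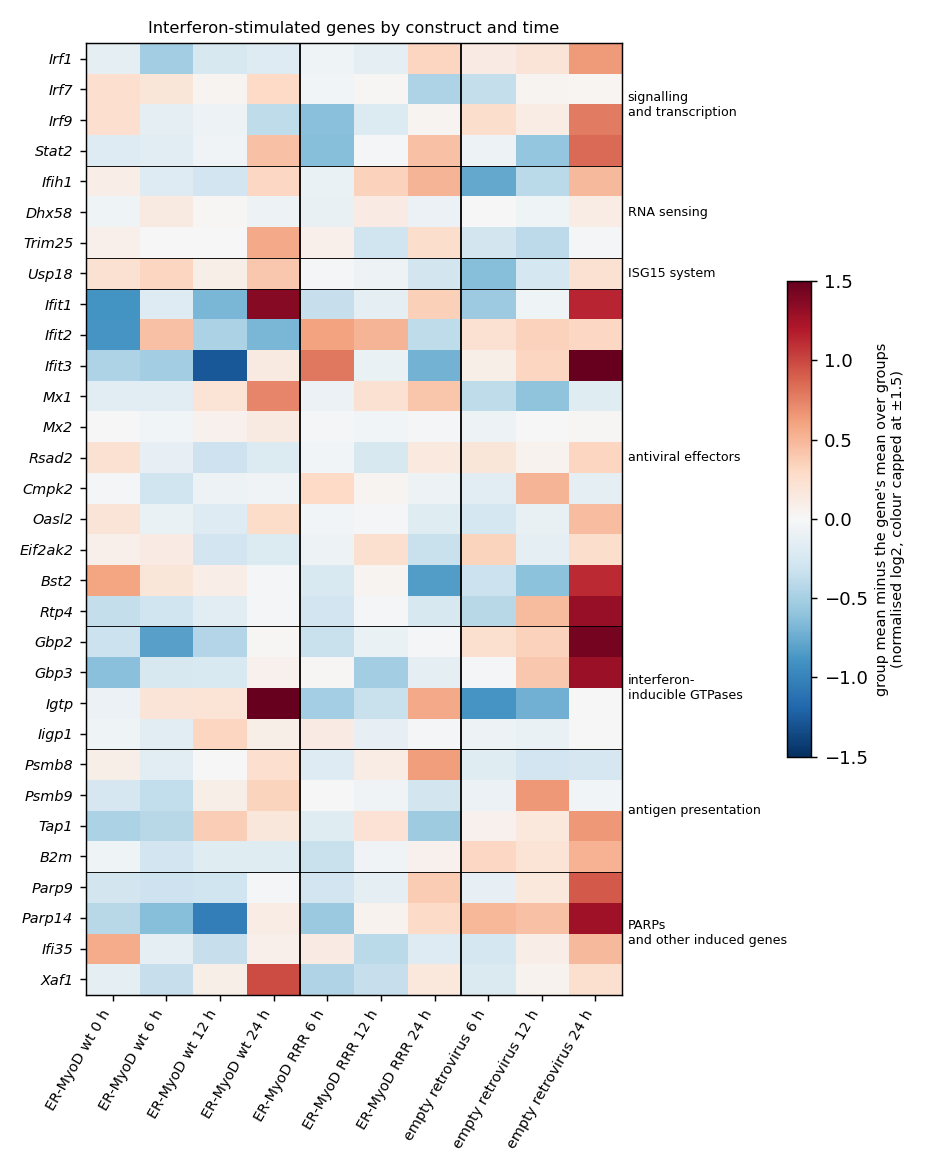
Group mean of each of the 31 genes minus that gene's mean over the 10 groups, on the normalised log2 scale (colour, limited to 1.5 either way), with genes in lines ordered by role and groups in columns. The empty retrovirus 24 h column holds the highest mean of 14 genes and the ER-MyoD wt 24 h column that of 8.

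ER-MyoD wt was compared with empty retrovirus at each time, to see how the cells differed at equal times in medium. Empty retrovirus cells had no 0 h arrays. A difference that the cells had before hormone therefore cannot be told apart from an effect of the active fusion. At 24 h the mean signal of Ifit3 was 71.6 ± 7.24 (SD, n = 3) in ER-MyoD wt and 255 ± 21.4 with empty retrovirus. That of the GTPase Gbp2 was 44.7 ± 14.4 against 152 ± 19.3, and that of the ADP-ribosyltransferase Parp14 47.5 ± 17.7 against 132 ± 14.3. In the other direction, the GTPase Igtp read 228 ± 20.4 in ER-MyoD wt and 75.1 ± 23.4 with empty retrovirus. By limma over all 18193 genes with Benjamini-Hochberg adjustment, 10 of 31 members were lower (32.3%, against 14% of all genes) and 3 were higher (9.68%, against 11.4%). The lower ones were Irf1, Irf9, Ifit2, Ifit3, Rtp4, Gbp2, Gbp3, B2m, Parp9 and Parp14, and the higher ones Trim25, Mx1 and Igtp. The median log2 difference was -0.40 over the members and 0.03 over all genes, on the scale of log2(signal + 16), which understates the change of a dim gene. At 6 h 3 members were lower (Gbp2, B2m and Parp14, 9.68% against 6.21% of all genes) and at 12 h 4 (Ifit2, Ifit3, B2m and Parp14, 12.9% against 8.26%), shares near those of all genes, and at both times 0 were higher (6.51% and 7.16% of all genes). Median differences of the members were -0.08 at 6 h and -0.15 at 12 h, beside -0.01 and -0.02 over all genes. Without the 3 arrays set apart, 13 members were called at 24 h, 5 at 6 h and 4 at 12 h.

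The same comparison was made for the non-acetylatable fusion, with the same limit. At 24 h the mean signal of Ifit3 in ER-MyoD RRR was 41.8 ± 34.0, that of Gbp3 27.9 ± 1.45 against 103 ± 13.8 with empty retrovirus, and that of Bst2, the protein that tethers virions to the cell surface, 45.4 ± 36.0 against 191 ± 15.7. In total, 10 of 31 members were lower (32.3%, against 10.5% of all genes), namely Ifit2, Ifit3, Bst2, Rtp4, Gbp2, Gbp3, Tap1, B2m, Parp14 and Ifi35. Only Psmb8 was higher among the 31 (3.23%, against 8.56%). The median log2 difference was -0.49 over the members and 0.03 over all genes. At 6 h B2m and Parp14 were lower (6.45% against 6.63% of all genes) and at 12 h Gbp3 was (3.23% against 4.97%), and 0 were higher at either time (7.18% and 5.11% of all genes). At 12 h 10.1% of all genes were called in 1 direction or the other. Member medians were 0.08 at 6 h and -0.03 at 12 h, beside 0.04 and -0.01 over all genes. Without the 3 arrays set apart, 14 members were called at 24 h. Both fusions were set against the same empty retrovirus arrays, so the values of the 2 comparisons share their control and their likeness is no independent result.

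ER-MyoD RRR was then compared with ER-MyoD wt, from which it differs in the mutated lysines. Myod1 read 298 to 1155 in ER-MyoD RRR arrays and 451 to 1299 in ER-MyoD wt arrays. Summed skeletal muscle markers at 12 h were 5426 to 6250 in ER-MyoD RRR and 12628 to 13665 in ER-MyoD wt. Effects of the mutation, of the level of the fusion and of the stage of conversion cannot be told apart here. At 12 h Ifit2 read 309 ± 14.6 in ER-MyoD RRR and 148 ± 44.3 in ER-MyoD wt, and Parp14 read 39.4 ± 6.73 and 10.7 ± 2.15. These 2 of 31 members were higher in ER-MyoD RRR at 12 h and 0 were lower, where 0.874% of all genes were higher, 0.879% lower and 1.75% either. At 6 h limma called 0 members, of which 2 had an unadjusted p under 0.05 (1.63% of all genes were higher, 2.03% lower and 3.66% either). At 24 h it called 0 as well, with 6 at an unadjusted p under 0.05, namely Irf1, Irf7, Trim25, Ifit1, Igtp and Xaf1 (3.34% of all genes were higher, 2.04% lower and 5.38% either). Member medians were 0.05, 0.07 and -0.15 at 6, 12 and 24 h, beside 0.05, 0.01 and 0.00 over all genes. Absence of a call does not show that the fusions acted alike on these genes. Without the 3 arrays set apart, 0 members were called at 6 h, 2 at 12 h and 1 at 24 h.

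**Figure D2:**
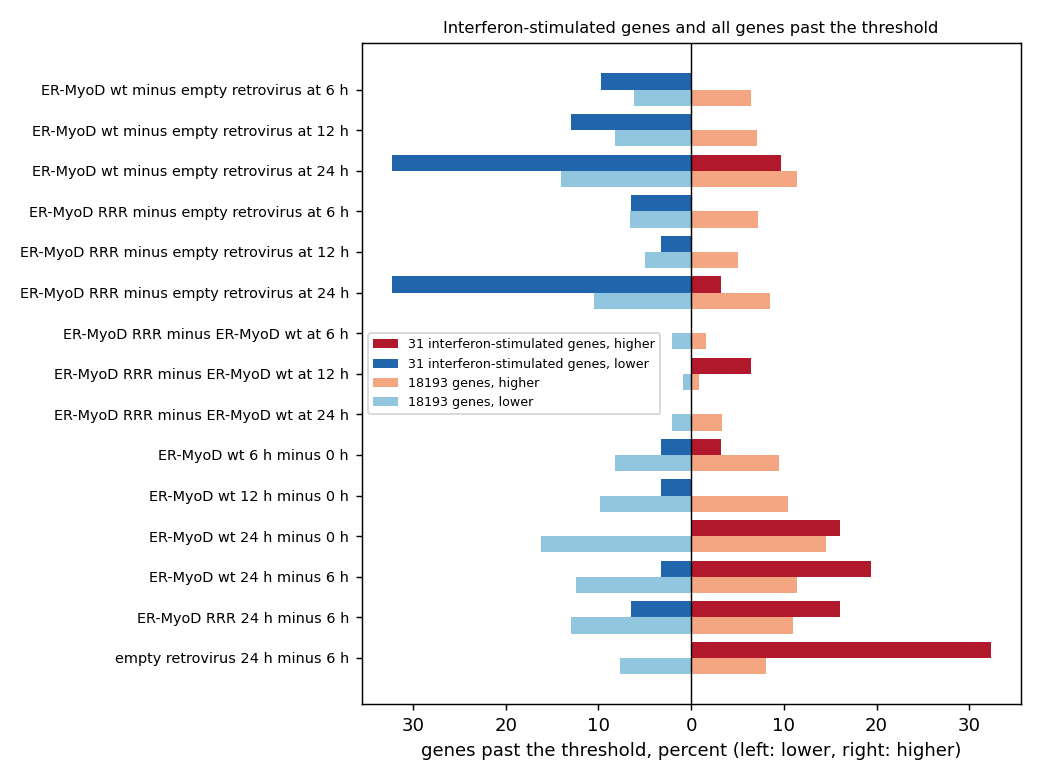
Percent of the 31 interferon-stimulated genes (dark bars) and of all 18193 genes (pale bars) past an adjusted p of 0.05 in each comparison, with lower genes drawn to the left of 0 and higher genes to the right. At 24 h 32.3% of the interferon-stimulated genes were lower in each fusion than with empty retrovirus, against 14% and 10.5% of all genes.

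Change with time was also read in cells with no fusion. The empty retrovirus 24 h arrays used here also entered the fusion comparisons at 24 h and enter the interactions below. These results are therefore not independent of each other. From 6 h to 24 h in differentiation medium, empty retrovirus cells raised Ifit3 from 78.3 ± 38.9 to 255 ± 21.4, Gbp2 from 55.8 ± 4.78 to 152 ± 19.3 and Parp9 from 145 ± 32.4 to 303 ± 29.1. In all 10 of 31 members rose (32.3%, against 8.09% of all genes) and 0 fell (7.67% of all genes). The 10 were Ifih1, Ifit1, Ifit3, Bst2, Rtp4, Gbp2, Gbp3, Parp9, Parp14 and Ifi35. The median change was 0.53 over the members, 29 of which had a positive value, and -0.02 over all genes. ER-MyoD wt cells over the same interval raised 6 members (19.4%, against 11.4% of all genes), namely Trim25, Ifit1, Mx1, Igtp, Parp14 and Xaf1, and lowered Ifit2 (3.23% against 12.4%). ER-MyoD RRR cells raised Stat2, Psmb8, B2m, Parp9 and Parp14 (16.1% against 11%) and lowered Ifit2 and Ifit3 (6.45% against 12.9%). Median changes were 0.30 in ER-MyoD wt and 0.05 in ER-MyoD RRR, beside 0.02 and -0.02 over all genes.

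Whether the change from 6 h to 24 h itself differed between constructs was tested as an interaction in the same fit. Relative to empty retrovirus, ER-MyoD wt moved lower for Ifit2 and Rtp4, 2 of 31 members (6.45%, against 8.24% of all genes). It moved higher for 0 members (6.45% of all genes). ER-MyoD RRR moved lower for 6 members, Ifit2, Ifit3, Bst2, Rtp4, Gbp3 and Ifi35 (19.4%, against 5.93% of all genes), and higher for 0 (4.55%). The ER-MyoD RRR test was added after the values were seen. Between ER-MyoD RRR and ER-MyoD wt, limma called 0 members, with 1 at an unadjusted p under 0.05 (Ifit3, -2.16, adjusted p = 0.0557), while 1.33% of all genes were positive, 0.704% negative and 2.03% either.

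ER-MyoD wt alone had arrays at 0 h, so changes from 0 h hold medium, hormone and the active fusion together, and these cannot be told apart. Ifit2 rose from 0 h to 6 h and Ifi35, which binds the interferon-induced protein Nmi, fell, each 1 of 31 members (9.51% of all genes rose and 8.2% fell). At 12 h only Ifi35 passed among the 31, again lower than at 0 h (9.86% of all genes fell and 10.5% rose). At 24 h Trim25, Ifit1, Mx1, Igtp and Xaf1 stood above 0 h, 5 of 31 members (16.1%, against 14.5% of all genes), and 0 stood below (16.2% of all genes).

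Members are described by role from here on, starting with the transcription factors that carry the signal. Irf9 is the DNA-binding partner of STAT2. Irf9 read 70.7, 85.8 and 109 in empty retrovirus cells at 6 h, 95.8, 78.1 and 62.9 at 12 h, and 162, 131 and 118 at 24 h. Under ER-MyoD wt, Irf9 read 70.8, 68.9 and 79.2 at 0 h, 46.5, 71.3 and 39.6 at 6 h, 51.4, 70.0 and 55.1 at 12 h, and 86.7, 68.8 and 13.3 at 24 h. Under ER-MyoD RRR, Irf9 read 41.4, 17.3 and 49.3 at 6 h, 68.3, 57.9 and 32.4 at 12 h, and 53.1, 94.1 and 89.6 at 24 h. The empty retrovirus 24 h arrays were above all 27 others, and ER-MyoD wt 24 h replicate 3 was the lowest of the series. The ER-MyoD wt minus empty retrovirus difference at 24 h was -1.16 ± 0.36, adjusted p = 0.0163, where ± is the standard error of limma's model. It lost the call without that replicate or without empty retrovirus 24 h replicate 1 (adjusted p up to 0.256, weakest value -0.52), and also when only the arrays of the groups compared were fitted. In ER-MyoD RRR at 24 h Irf9 did not pass (-0.75, adjusted p = 0.165), although without the 3 arrays set apart it did (-0.75, adjusted p = 0.022).

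Stat2 is the STAT that is specific to type I and type III interferon signalling. Stat2 read 97.1, 79.8 and 66.2 in empty retrovirus cells at 6 h, 77.4, 29.5 and 60.3 at 12 h, and 186, 130.5 and 201 at 24 h. Under ER-MyoD wt, Stat2 read 63.8, 76.0 and 45.3 at 0 h, 66.2, 47.3 and 80.2 at 6 h, 89.3, 98.4 and 42.5 at 12 h, and 154, 79.2 and 119 at 24 h. Under ER-MyoD RRR, Stat2 read 62.1, 16.6 and 60.1 at 6 h, 84.1, 49.0 and 95.7 at 12 h, and 107, 128 and 137 at 24 h. At 24 h the arrays of the 3 constructs overlapped, and the mean of each construct was above its mean at 6 h. Neither fusion differed from empty retrovirus at 24 h by the test (ER-MyoD wt -0.41, adjusted p = 0.42, ER-MyoD RRR -0.41, adjusted p = 0.448). The rise from 6 h to 24 h passed in ER-MyoD RRR (1.07 ± 0.32, adjusted p = 0.0136), but it rested on ER-MyoD RRR 6 h replicate 2, without which it was 0.62, adjusted p = 0.165, and it was also lost with only the arrays of the groups compared (adjusted p up to 0.165 over both settings).

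Irf7 is the factor that amplifies transcription of type I interferon genes. Irf7 read 54.8, 20.002 and 60.3 in empty retrovirus cells at 6 h, 123, 46.3 and 34.8 at 12 h, and 75.2, 46.8 and 61.2 at 24 h. Under ER-MyoD wt, Irf7 read 84.3, 46.9 and 57.5 at 0 h, 48.3, 80.6 and 46.3 at 6 h, 61.5, 38.8 and 63.6 at 12 h, and 67.2, 72.2 and 79.1 at 24 h. Under ER-MyoD RRR, Irf7 read 49.9, 53.8 and 42.2 at 6 h, 30.4, 60.2 and 71.0 at 12 h, and 9.81, 58.8 and 76.8 at 24 h. The groups overlapped at every time, and Irf7 passed none of the 15 comparisons of 2 groups. Irf1, a factor that interferon gamma induces strongly through GAS, had a mean of 262 ± 94.6 in ER-MyoD wt and 482 ± 142 in empty retrovirus cells at 24 h, with overlapping arrays (164 to 352 and 322 to 594). That difference passed (-0.83 ± 0.22, adjusted p = 0.0046) but not without ER-MyoD wt 24 h replicate 2 (-0.56, adjusted p = 0.0641) or with only the arrays of the groups compared (adjusted p = 0.0679).

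Of the 3 RNA sensing members, only Trim25, a ubiquitin ligase that modifies the RNA sensor RIG-I, passed between constructs. Trim25 read 881, 1128 and 759.8 in the ER-MyoD wt arrays at 24 h, 832, 681 and 609.7 under ER-MyoD RRR and 570.2, 592 and 615 with empty retrovirus. The ER-MyoD wt arrays lay above the empty retrovirus arrays and overlapped those of ER-MyoD RRR. Trim25 was higher in ER-MyoD wt than with empty retrovirus (0.59 ± 0.14, adjusted p = 0.00185) and than at 0 h (0.50 ± 0.14, adjusted p = 0.00664), the latter not without ER-MyoD wt 24 h replicate 2 (0.39, adjusted p = 0.0598) nor under median centring (0.31, adjusted p = 0.335). Its rise from 6 h to 24 h was lost under median centring too (adjusted p = 0.256). Ifih1, the sensor of long double-stranded RNA, was dim, with 4.75, 5.66 and 9.34 in empty retrovirus cells at 6 h and 51.3, 34.1 and 34.6 at 24 h. It rose over that interval (1.26 ± 0.38, adjusted p = 0.02), but the call was lost without empty retrovirus 6 h replicate 1 or 2 or 24 h replicate 1 (adjusted p up to 0.0803). Dhx58, a helicase that tunes RNA sensing, and Usp18, the protease that removes ISG15, passed in 0 of the 15 comparisons, with group means of 53.7 to 75.2 and 13.5 to 40.6.

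The IFIT proteins bind viral RNA and block its translation. Ifit3 has a near-identical neighbour, Ifit3b, so its probe set may read both. On the log2(signal + 16) scale Ifit3 showed the largest difference of any member in either fusion against empty retrovirus at 24 h, but with a pseudocount of 1 Rtp4 exceeded it in ER-MyoD wt. Ifit3 read 33.4, 98.1 and 103 in empty retrovirus cells at 6 h, 66.0, 107 and 99.2 at 12 h, and 231, 273 and 261 at 24 h. Under ER-MyoD wt, Ifit3 read 27.5, 37.6 and 44.2 at 0 h, 77.3, 13.8 and 29.8 at 6 h, 5.73, 10.4 and 36.5 at 12 h, and 63.8, 78.0 and 73.0 at 24 h. Under ER-MyoD RRR, Ifit3 read 130.1, 111 and 85.9 at 6 h, 52.5, 55.8 and 50.3 at 12 h, and 79.8, 31.7 and 14.0 at 24 h. The empty retrovirus 24 h arrays stood above all others, the highest of which read 130.1 in ER-MyoD RRR at 6 h. At 24 h Ifit3 was lower in ER-MyoD wt (-1.59 ± 0.42, adjusted p = 0.00505) and in ER-MyoD RRR (-2.43 ± 0.42, adjusted p = 8.67e-05), and both calls held without each array in turn. At 12 h it was lower in ER-MyoD wt (-1.59 ± 0.42, adjusted p = 0.00851), but not without ER-MyoD wt 12 h replicate 1 or empty retrovirus 12 h replicate 2 (adjusted p up to 0.0672). From 6 h to 24 h it rose in empty retrovirus cells (1.64 ± 0.42, adjusted p = 0.00655) and fell in ER-MyoD RRR cells (-1.49 ± 0.42, adjusted p = 0.00883). The rise was lost without empty retrovirus 6 h replicate 1 (1.22, adjusted p = 0.0756) and the fall without ER-MyoD RRR 24 h replicate 3 (-1.11, adjusted p = 0.087), whereas the interaction between them (-3.13 ± 0.60, adjusted p = 0.000565) held without each array. The 2 ISRE matches of its promoter are printed above.

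Ifit2 followed another course. Ifit2 read 241, 301 and 241 in empty retrovirus cells at 6 h, 280.2, 336 and 228 at 12 h, and 274, 269 and 287 at 24 h. Under ER-MyoD wt, Ifit2 read 103, 81.6 and 107 at 0 h, 365, 213 and 313 at 6 h, 108, 195 and 141 at 12 h, and 130.4, 163 and 104 at 24 h. Under ER-MyoD RRR, Ifit2 read 301, 359 and 309 at 6 h, 304, 326 and 299 at 12 h, and 154, 163 and 187 at 24 h. At 6 h the 3 constructs overlapped, at 12 h ER-MyoD wt lay below both others, and at 24 h both fusions lay below empty retrovirus. In ER-MyoD wt, Ifit2 rose from 0 h to 6 h (1.32 ± 0.20, adjusted p = 1.49e-05) and fell from 6 h to 24 h (-1.12 ± 0.20, adjusted p = 6.85e-05), while in empty retrovirus cells it changed by 0.08, adjusted p = 0.886 over the latter interval. Against empty retrovirus it was lower in ER-MyoD wt at 12 h (-0.82 ± 0.20, adjusted p = 0.00366) and 24 h (-0.99 ± 0.20, adjusted p = 0.000292). It fell from 6 h to 24 h in ER-MyoD RRR too (-0.97 ± 0.20, adjusted p = 0.000398). ER-MyoD RRR exceeded ER-MyoD wt at 12 h (0.98 ± 0.20, adjusted p = 0.00601), a call lost without ER-MyoD wt 12 h replicate 1 (0.79, adjusted p = 0.0822), and lay below empty retrovirus at 24 h (-0.68 ± 0.20, adjusted p = 0.0148), a call lost without ER-MyoD RRR 24 h replicate 1 (-0.64, adjusted p = 0.053).

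Ifit1 rose in ER-MyoD wt and in empty retrovirus cells. Ifit1 read 14.6, 34.4 and 22.9 in empty retrovirus cells at 6 h, 52.7, 47.3 and 24.0 at 12 h, and 139, 149 and 66.6 at 24 h. Under ER-MyoD wt, Ifit1 read 8.95, 9.51 and 17.2 at 0 h, 24.8, 33.4 and 27.9 at 6 h, 54.3, 6.94 and 6.62 at 12 h, and 94.1, 152 and 143 at 24 h. Under ER-MyoD RRR, Ifit1 read 27.0, 56.9 and 6.68 at 6 h, 36.1, 25.0 and 33.5 at 12 h, and 53.5, 57.8 and 77.1 at 24 h. At 24 h the ER-MyoD wt arrays overlapped those of empty retrovirus, and the ER-MyoD RRR arrays lay below all ER-MyoD wt arrays. Ifit1 rose from 0 h to 24 h in ER-MyoD wt (2.26 ± 0.38, adjusted p = 2.4e-05) and from 6 h to 24 h in ER-MyoD wt (1.56 ± 0.38, adjusted p = 0.0026) and in empty retrovirus cells (1.68 ± 0.38, adjusted p = 0.002), but did not pass in ER-MyoD RRR (0.70, adjusted p = 0.218). It did not pass between any 2 constructs at any time, with 0.23, adjusted p = 0.75 for ER-MyoD wt minus empty retrovirus and -1.01, adjusted p = 0.143 for ER-MyoD RRR minus ER-MyoD wt at 24 h. The 3 IFIT genes lie near one another on chromosome 19, and their courses were not tested against each other. Ifit3 was high in empty retrovirus cells alone at 24 h. From 6 h to 24 h Ifit2 fell in both fusions and Ifit3 in ER-MyoD RRR. Ifit1 passed in no comparison of constructs.

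**Figure D3:**
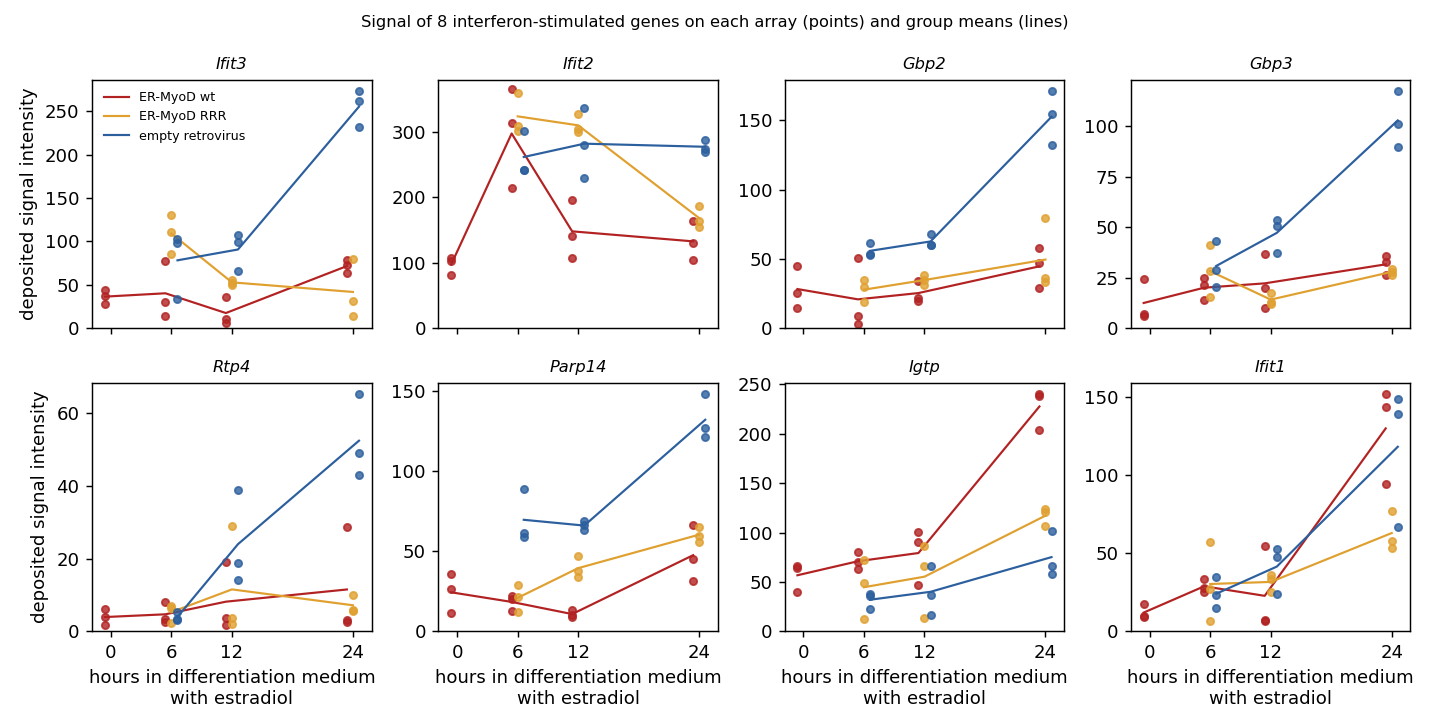
Deposited signal of 8 interferon-stimulated genes in every array (points) against hours in differentiation medium, with lines through the group means of ER-MyoD wt, ER-MyoD RRR and empty retrovirus. Ifit3, Gbp2, Gbp3, Rtp4 and Parp14 were highest in the empty retrovirus arrays at 24 h, Igtp was highest in the ER-MyoD wt arrays at 24 h, and Ifit1 overlapped between those groups.

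Rtp4, an interferon-induced protein with antiviral activity, was dim in all but 1 group. Rtp4 read 3.37, 5.17 and 3.20 in empty retrovirus cells at 6 h, 38.9, 14.2 and 18.8 at 12 h, and 43.1, 65.2 and 48.9 at 24 h. Under ER-MyoD wt, Rtp4 read 3.79, 6.16 and 1.72 at 0 h, 8.13, 2.45 and 3.36 at 6 h, 19.0, 3.66 and 1.69 at 12 h, and 2.56, 28.8 and 3.09 at 24 h. Under ER-MyoD RRR, Rtp4 read 6.49, 6.88 and 2.35 at 6 h, 3.70, 28.8 and 1.98 at 12 h, and 5.51, 5.92 and 9.96 at 24 h. The empty retrovirus 24 h arrays stood above the rest, and the next highest, 38.9, was empty retrovirus 12 h replicate 1. Rtp4 was lower at 24 h in ER-MyoD wt (-1.33 ± 0.33, adjusted p = 0.0024) and in ER-MyoD RRR (-1.55 ± 0.33, adjusted p = 0.000807), and it rose from 6 h to 24 h in empty retrovirus cells (1.72 ± 0.33, adjusted p = 0.00028). Leaving out each array in turn ended none of these 3 calls. A dimmer second probe set of Rtp4, with a mean signal of 7.79, did not pass (-0.23 in ER-MyoD wt and -0.05 in ER-MyoD RRR at 24 h).

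Bst2 read 182, 209 and 182 in empty retrovirus cells at 24 h, above all other arrays. Under ER-MyoD RRR it read 12.2, 83.6 and 40.3 and under ER-MyoD wt 84.5, 101 and 44.9 at that time, so replicates spread widely. It passed in ER-MyoD RRR (-1.96 ± 0.47, adjusted p = 0.00276) and not in ER-MyoD wt (-1.15, adjusted p = 0.0719). Its rise in empty retrovirus cells from 6 h to 24 h (1.44 ± 0.47, adjusted p = 0.0327) was lost without empty retrovirus 6 h replicate 2 or any 1 of the 24 h arrays (adjusted p up to 0.225) and with a pseudocount of 1 (adjusted p = 0.0706). Mx1, a dynamin-like GTPase that traps viral nucleocapsids, was dim, with 46.6, 61.7 and 34.9 in ER-MyoD wt, 30.1, 47.0 and 41.9 in ER-MyoD RRR and 23.5, 19.2 and 14.6 in empty retrovirus cells at 24 h. The ER-MyoD wt and empty retrovirus arrays did not overlap, but the call (0.92 ± 0.32, adjusted p = 0.0318) was lost without any array of the 2 groups except ER-MyoD wt 24 h replicate 3 (adjusted p up to 0.176). Its rise in ER-MyoD wt from 0 h (0.90, adjusted p = 0.029) and from 6 h (0.89, adjusted p = 0.0401) to 24 h was likewise lost without any of 4 arrays each (adjusted p up to 0.173 and 0.206). All 3 calls of Mx1 were also lost with a pseudocount of 1 and with only the arrays of the groups compared, the first as well on the deposited scale and the last under median centring (adjusted p up to 0.129, 0.123 and 0.149). For both rises, the arrays were the ER-MyoD wt 24 h replicates 1 and 2 and a pair of arrays at the earlier time, 0 h replicates 2 and 3 or 6 h replicates 1 and 3.

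The other 5 antiviral effectors passed in none of the 15 comparisons of 2 groups. They were Mx2, a relative of Mx1 (group means 4.35 to 7.63), Rsad2, an enzyme that makes a chain-terminating nucleotide (21.8 to 47.8), Cmpk2, a nucleotide kinase (14.2 to 42.7), Oasl2, of the oligoadenylate synthetase family (16.7 to 40.1), and Eif2ak2, the kinase PKR that stops translation (66.0 to 123). The first 4 had mean signals under the lowest array median. Rsad2 and Eif2ak2 hold ISRE letters in their promoters, as do Ifit3, Gbp2 and others that passed.

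The interferon-inducible GTPases attack the vacuoles of intracellular microbes. Gbp2 read 52.8, 61.3 and 53.3 in empty retrovirus cells at 6 h, 59.9, 60.1 and 67.8 at 12 h, and 171, 154 and 132 at 24 h. Under ER-MyoD wt, Gbp2 read 44.9, 25.4 and 14.6 at 0 h, 8.78, 50.5 and 3.27 at 6 h, 34.4, 19.6 and 22.2 at 12 h, and 47.0, 29.2 and 57.7 at 24 h. Under ER-MyoD RRR, Gbp2 read 29.5, 35.1 and 18.9 at 6 h, 31.2, 38.5 and 34.6 at 12 h, and 36.0, 33.1 and 79.5 at 24 h. The empty retrovirus 24 h arrays stood above all others, and the next highest, 79.5, was ER-MyoD RRR 24 h replicate 3. At 6 h the empty retrovirus arrays also lay above those of both fusions. Gbp2 was lower at 24 h in ER-MyoD wt (-1.42 ± 0.33, adjusted p = 0.00145) and ER-MyoD RRR (-1.46 ± 0.33, adjusted p = 0.00171), and a second probe set passed in the same direction (-1.31 and -1.23, adjusted p = 0.0069 and 0.0163 over all probe sets). The 6 h difference in ER-MyoD wt (-1.05 ± 0.33, adjusted p = 0.0331) was lost without any array of the 2 groups except ER-MyoD wt 6 h replicate 2 (adjusted p up to 0.246) and with only the arrays of the groups compared (adjusted p = 0.157).

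Gbp3, a neighbour of Gbp2 on chromosome 3, was likewise highest in empty retrovirus cells at 24 h. Gbp3 read 20.6, 28.9 and 43.1 in empty retrovirus cells at 6 h, 37.2, 50.8 and 53.7 at 12 h, and 89.9, 117 and 101 at 24 h. Under ER-MyoD wt, Gbp3 read 7.19, 5.91 and 24.5 at 0 h, 21.5, 25.1 and 13.7 at 6 h, 36.7, 9.85 and 20.2 at 12 h, and 32.8, 26.2 and 35.9 at 24 h. Under ER-MyoD RRR, Gbp3 read 15.4, 41.0 and 28.4 at 6 h, 12.8, 17.5 and 12.2 at 12 h, and 29.4, 26.6 and 27.8 at 24 h. Again the empty retrovirus 24 h arrays were the highest, with 53.7 as the highest value elsewhere, in empty retrovirus cells at 12 h. Gbp3 was lower at 24 h in ER-MyoD wt (-1.23 ± 0.29, adjusted p = 0.00151) and ER-MyoD RRR (-1.45 ± 0.29, adjusted p = 0.00043). Both genes rose in empty retrovirus cells from 6 h to 24 h (Gbp2 1.19, adjusted p = 0.0111, Gbp3 1.33, adjusted p = 0.00124). These 4 differences of Gbp3 and Gbp2 at 24 h and both rises held without each array in turn, but the rise of Gbp2 was lost with a pseudocount of 1 (adjusted p = 0.0828). At 12 h Gbp3 was lower in ER-MyoD RRR (-0.93 ± 0.29, adjusted p = 0.0367), but not without any 1 array of the 2 groups other than empty retrovirus 12 h replicate 1 (adjusted p up to 0.142), under median centring, with a pseudocount of 1 or with only the arrays of the groups compared (adjusted p up to 0.104).

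Igtp, of the immunity-related GTPases, ran the other way. Igtp read 22.6, 37.3 and 35.7 in empty retrovirus cells at 6 h, 16.8, 36.9 and 66.0 at 12 h, and 65.6, 57.8 and 102 at 24 h. Under ER-MyoD wt, Igtp read 66.4, 39.7 and 63.9 at 0 h, 70.0, 79.9 and 62.7 at 6 h, 46.6, 90.3 and 101 at 12 h, and 238, 204 and 240.5 at 24 h. Under ER-MyoD RRR, Igtp read 12.8, 49.0 and 71.9 at 6 h, 13.7, 86.0 and 66.0 at 12 h, and 124, 107 and 121 at 24 h. The ER-MyoD wt 24 h arrays stood above all others, the next highest being 124 in ER-MyoD RRR at 24 h. Igtp was higher in ER-MyoD wt than with empty retrovirus at 24 h (1.55 ± 0.41, adjusted p = 0.00473), and it had risen from 0 h (1.65 ± 0.41, adjusted p = 0.00227) and from 6 h (1.37 ± 0.41, adjusted p = 0.0136). These 3 calls held without each array in turn, though the last was lost with a pseudocount of 1 (adjusted p = 0.055). In ER-MyoD RRR at 24 h the difference from empty retrovirus was 0.56, adjusted p = 0.401, and that from ER-MyoD wt -0.99, adjusted p = 0.196, so neither passed. Iigp1, another immunity-related GTPase, passed in none of the 15 comparisons (group means 56.4 to 91.7).

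Among the genes of antigen presentation, B2m encodes the light chain of MHC class I. B2m read 6179, 6314 and 5876 in empty retrovirus cells at 6 h, 5391, 5438 and 6221 at 12 h, and 5686, 7461 and 6436 at 24 h. Under ER-MyoD wt, B2m read 5153, 6743 and 4636 at 0 h, 4615, 3975 and 4385 at 6 h, 4803, 4742 and 4019 at 12 h, and 4437, 4115 and 4935 at 24 h. Under ER-MyoD RRR, B2m read 3799, 4923 and 4519.9 at 6 h, 3815, 6048 and 4845 at 12 h, and 4947, 4823 and 5379 at 24 h. At 6 h and 24 h every array of either fusion lay below every empty retrovirus array. B2m was lower in ER-MyoD wt at 6 h (-0.60 ± 0.13, adjusted p = 0.00161) and 24 h (-0.70 ± 0.13, adjusted p = 0.000114) and in ER-MyoD RRR at 6 h (-0.65 ± 0.13, adjusted p = 0.000764) and 24 h (-0.46 ± 0.13, adjusted p = 0.0129). The last call was lost without ER-MyoD RRR 24 h replicate 1 or empty retrovirus 24 h replicate 1 (adjusted p up to 0.0504). The 12 h difference in ER-MyoD wt (-0.39, adjusted p = 0.0386) was lost without ER-MyoD wt 12 h replicate 3 or any empty retrovirus 12 h array (adjusted p up to 0.232). Centring each array on its median instead of quantile normalisation ended all 5 calls, with ER-MyoD wt at -0.48, adjusted p = 0.0803 at 24 h (adjusted p up to 0.408 and 0.339 at 6 h). On the deposited scale the 12 h call in ER-MyoD wt and the 24 h call in ER-MyoD RRR were lost as well, the former also without the 3 arrays set apart and with only the arrays of the groups compared (adjusted p up to 0.683 and 0.14). A second B2m probe set was lower too (-0.81 and -0.63 in ER-MyoD wt and ER-MyoD RRR at 24 h). B2m rose from 6 h to 24 h in ER-MyoD RRR (0.40, adjusted p = 0.0254), but its sign turned under median centring (-0.04, adjusted p = 0.922), and the call was lost without ER-MyoD RRR 6 h replicate 1 or 24 h replicate 2 or 3 (adjusted p up to 0.126).

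Tap1, a subunit of the peptide transporter, read 38.0, 14.6 and 43.0 in ER-MyoD RRR and 85.3, 86.9 and 89.2 in empty retrovirus cells at 24 h, without overlap. The difference passed (-1.19 ± 0.35, adjusted p = 0.015) but not without ER-MyoD RRR 24 h replicate 2 (-0.91, adjusted p = 0.106), and 3 other Tap1 probe sets gave -0.26, 0.26 and 0.01, none of which passed, and with the mean of all 4 the call was lost (adjusted p = 0.239). Psmb8, an immunoproteasome subunit, read 18.1, 13.2 and 45.1 in ER-MyoD RRR and 4.43, 3.65 and 3.54 in empty retrovirus cells, all but 1 of these values under the lowest array median. It was higher in ER-MyoD RRR (0.87 ± 0.29, adjusted p = 0.0319), but the call was lost without ER-MyoD RRR 24 h replicate 3 or any empty retrovirus 24 h array (adjusted p up to 0.229), and a second probe set gave 0.12. It was also lost with the mean of both probe sets and with only the arrays of the groups compared (adjusted p up to 0.104). Its rise in ER-MyoD RRR from 6 h (0.82, adjusted p = 0.0381) was lost without any ER-MyoD RRR 6 h array or without 24 h replicate 3 (adjusted p up to 0.26) and under 4 of 7 other settings (adjusted p up to 0.368). Psmb9, a second immunoproteasome subunit, passed in none of the 15 comparisons (group means 7.71 to 41.2).

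Parp14 and Parp9 encode ADP-ribosyltransferases, and Parp14 was lower in ER-MyoD wt than with empty retrovirus at all 3 times. Parp14 read 88.6, 61.4 and 58.9 in empty retrovirus cells at 6 h, 68.8, 63.0 and 66.2 at 12 h, and 127, 148 and 121 at 24 h. Under ER-MyoD wt, Parp14 read 35.5, 11.2 and 26.2 at 0 h, 21.7, 20.3 and 12.8 at 6 h, 10.04, 13.1 and 8.93 at 12 h, and 45.2, 31.1 and 66.2 at 24 h. Under ER-MyoD RRR, Parp14 read 12.1, 21.4 and 29.1 at 6 h, 33.7, 46.8 and 37.6 at 12 h, and 65.4, 59.8 and 55.9 at 24 h. At 6, 12 and 24 h every array of either fusion lay below every empty retrovirus array, and at 12 h ER-MyoD RRR lay between ER-MyoD wt and empty retrovirus with no overlap. Parp14 was lower in ER-MyoD wt at 6 h (-1.14 ± 0.25, adjusted p = 0.0017), 12 h (-1.48 ± 0.25, adjusted p = 6.12e-05) and 24 h (-1.17 ± 0.25, adjusted p = 0.00059). In ER-MyoD RRR it was lower at 6 h (-1.06 ± 0.25, adjusted p = 0.00343) and 24 h (-0.99 ± 0.25, adjusted p = 0.00456) but did not pass at 12 h (-0.38, adjusted p = 0.428). These 5 calls held without each array in turn. With the mean of both Parp14 probe sets, however, the 12 h call in ER-MyoD wt (adjusted p = 0.0678) and the 6 h call in ER-MyoD RRR were lost, the latter also with only the arrays of the groups compared (adjusted p up to 0.103). ER-MyoD RRR exceeded ER-MyoD wt at 12 h (1.09 ± 0.25, adjusted p = 0.0163), but not without ER-MyoD wt 12 h replicate 1 or 3 or ER-MyoD RRR 12 h replicate 2 or 3 (adjusted p up to 0.0892). A dimmer second probe set of Parp14, with a mean signal of 16.4, did not pass at 24 h (-0.46 in ER-MyoD wt and -0.37 in ER-MyoD RRR). With the mean of both, the 12 h difference between the fusions was 0.28, adjusted p = 0.769, and it was lost with only the arrays of the groups compared too.

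Parp14 rose from 6 h to 24 h in all 3 constructs, by 0.75, adjusted p = 0.0269 in ER-MyoD wt, 0.84, adjusted p = 0.0121 in ER-MyoD RRR and 0.77, adjusted p = 0.032 with empty retrovirus. Each rise was lost without some single array (adjusted p up to 0.115, 0.0924 and 0.131). In ER-MyoD wt these were 6 h replicates 2 and 3 and 24 h replicates 1 and 3, in ER-MyoD RRR 6 h replicate 1, and in empty retrovirus cells all but 6 h replicate 1. With the mean of both probe sets each rise was lost as well (adjusted p up to 0.301, 0.272 and 0.135 over the settings that ended it). Parp9 read 330.1, 307 and 272 in empty retrovirus cells at 24 h, 137, 159.6 and 147 in ER-MyoD wt and 226, 180.3 and 211 in ER-MyoD RRR, the first above all other arrays. It was lower in ER-MyoD wt (-0.94 ± 0.20, adjusted p = 0.000608), was -0.53, adjusted p = 0.0652 in ER-MyoD RRR, and rose from 6 h to 24 h with empty retrovirus (1.04 ± 0.20, adjusted p = 0.000363). It rose in ER-MyoD RRR as well (0.68, adjusted p = 0.0132), though not without ER-MyoD RRR 6 h replicate 1 or 24 h replicate 1 (adjusted p up to 0.0867) or with only the arrays of the groups compared (adjusted p = 0.0712).

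Ifi35 read 426, 467 and 480.4 in ER-MyoD wt at 0 h, 242, 316 and 274 at 6 h, 189.7, 189 and 369 at 12 h and 311, 383 and 287 at 24 h, so all later arrays lay below those at 0 h. At 24 h it read 254, 261 and 291 in ER-MyoD RRR and 406, 469 and 446 in empty retrovirus cells. The fall from 0 h passed at 6 h (-0.69 ± 0.20, adjusted p = 0.0152) and 12 h (-0.90 ± 0.20, adjusted p = 0.00129), the former not without ER-MyoD wt 0 h replicate 3 or 6 h replicate 1 (adjusted p up to 0.082). Against empty retrovirus it was lower in ER-MyoD RRR at 24 h (-0.68 ± 0.20, adjusted p = 0.0151), but not without ER-MyoD RRR 24 h replicate 1 or empty retrovirus 24 h replicate 2 (adjusted p up to 0.064), and other probe sets gave -0.12 and -0.43, which did not pass. Its rise from 6 h to 24 h in empty retrovirus cells (0.74, adjusted p = 0.00903) was lost without empty retrovirus 6 h replicate 1 (0.60, adjusted p = 0.0766). Xaf1, a pro-apoptotic partner of XIAP, read 120.1, 97.5 and 95.9 at 0 h in ER-MyoD wt cells, which rose to 200.2, 392 and 250.2 at 24 h. It rose from 0 h (1.12 ± 0.31, adjusted p = 0.00507, without ER-MyoD wt 24 h replicate 2 0.86, adjusted p = 0.0529) and from 6 h (1.32 ± 0.31, adjusted p = 0.00142). A second Xaf1 probe set gave 0.59 for the change from 6 h, which did not pass. Between constructs, Xaf1 passed in none of the 9 comparisons.

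**Figure D4:**
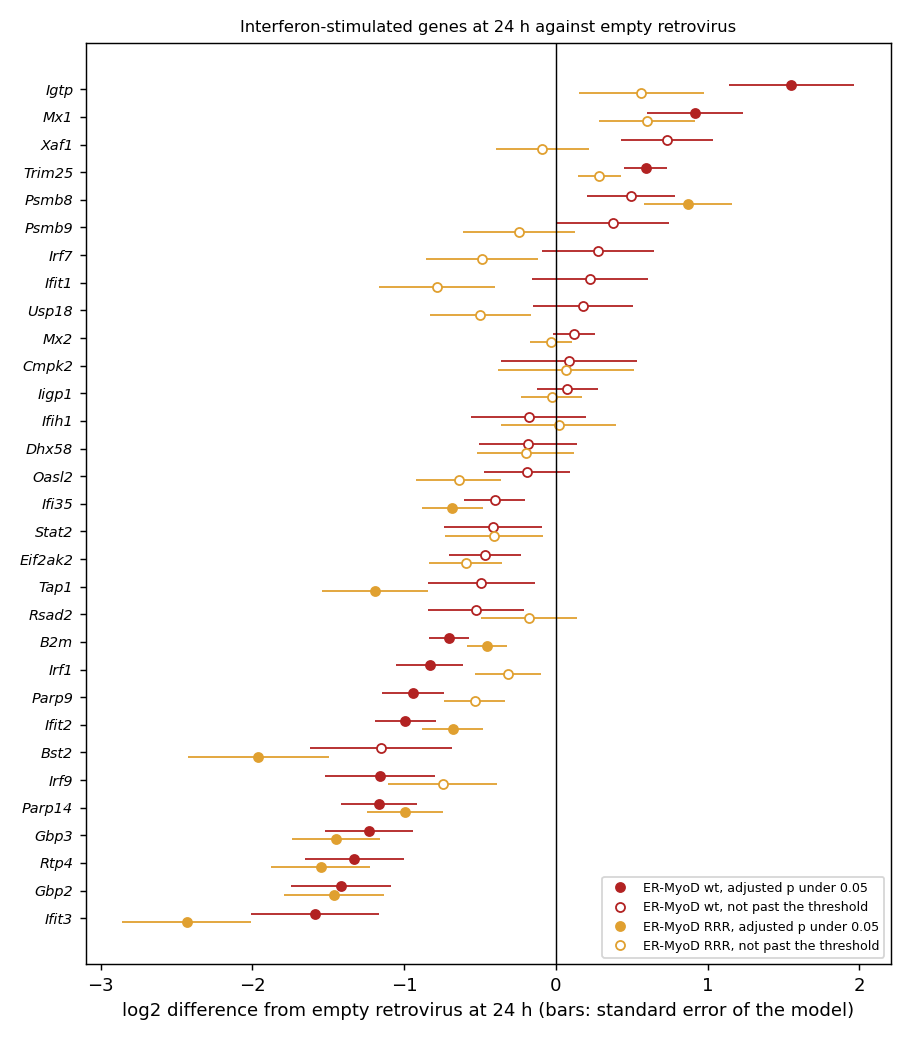
Difference from empty retrovirus at 24 h on the log2(signal + 16) scale for the 31 genes, with bars of ± 1 standard error of limma's model, ER-MyoD wt in red and ER-MyoD RRR in yellow, filled where the adjusted p was under 0.05. Ifit3 lay lowest in both, at -1.59 and -2.43, and Igtp was the highest in ER-MyoD wt, at 1.55.

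The interaction tests put numbers on the different courses. From 6 h to 24 h, Ifit2 changed by -1.20 ± 0.28, adjusted p = 0.00301 in ER-MyoD wt relative to empty retrovirus, and by -1.06 ± 0.28, adjusted p = 0.013 in ER-MyoD RRR. Rtp4 changed by -1.44 ± 0.46, adjusted p = 0.0325 and -1.68 ± 0.46, adjusted p = 0.0158. In ER-MyoD RRR the interaction also passed for Ifit3 (above), Bst2 (-2.05 ± 0.66, adjusted p = 0.0434), Gbp3 (-1.50 ± 0.41, adjusted p = 0.0143) and Ifi35 (-1.06 ± 0.28, adjusted p = 0.0129). These 4 genes did not pass in ER-MyoD wt, but the difference between the fusions passed for 0 members. Both values of Ifit2 and those of Ifit3 and Rtp4 in ER-MyoD RRR held without each array in turn. Rtp4 in ER-MyoD wt was lost without any of 7 arrays, which were ER-MyoD wt 6 h replicate 1 and 24 h replicates 1 and 3 and empty retrovirus 6 h replicates 1 and 3 and 24 h replicates 2 and 3 (adjusted p up to 0.115). Bst2 was lost without any of the 12 arrays except ER-MyoD RRR 6 h replicate 1 and 24 h replicate 2 and empty retrovirus 6 h replicates 1 and 3 (adjusted p up to 0.15). Gbp3 and Ifi35 were lost without empty retrovirus 6 h replicate 1 (adjusted p = 0.051 and 0.0503). Other settings ended 5 of these calls. Bst2 was lost under 6 of 8 settings, among them median centring and leaving out the 3 arrays set apart (adjusted p up to 0.0995). Rtp4 in ER-MyoD wt was lost with a pseudocount of 1, without the 3 arrays set apart and with only the arrays of the groups compared (adjusted p up to 0.115), and Rtp4 in ER-MyoD RRR with a pseudocount of 1 and with the mean of both probe sets (adjusted p up to 0.0833). Gbp3 was lost with a pseudocount of 1 (adjusted p = 0.0756) and Ifi35 with the mean of all its probe sets (adjusted p = 0.185).

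The rest of the pathway was read from lists of other genes. Of 86 further interferon-induced genes measured, 24 were lower and 2 higher in ER-MyoD wt than with empty retrovirus at 24 h (median -0.28, beside 14% and 11.4% of all genes and a median of 0.03 over all genes). The chemokine genes Ccl2 (1163 ± 84.4 against 5277 ± 689.8; -2.29, adjusted p = 2.52e-15) and Ccl7 (-2.43, adjusted p = 1.43e-12), the membrane protein gene Ly6e (-2.06, adjusted p = 4.88e-12) and the ubiquitin ligase gene Rnf213 (-1.41, adjusted p = 1.43e-08) had the smallest p. In ER-MyoD RRR 18 were lower and 1 higher (median -0.18, beside 10.5% and 8.56% of all genes). From 6 h to 24 h in empty retrovirus cells 15 rose and 2 fell (median 0.15, beside 8.09% and 7.67% of all genes). The interaction with ER-MyoD wt was negative for 15 and positive for 1 (8.24% and 6.45% of all genes). Between the fusions at 24 h 6 were higher and 0 lower in ER-MyoD RRR (3.34% and 2.04% of all genes). The higher ones included Ccl2 (1.36, adjusted p = 1.67e-08) and Ccl7 (1.50, adjusted p = 5.34e-07). Ccl2 and Ccl7 also answer inflammatory signals other than interferon.

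Other genes of MHC class I and peptide loading were lower in 7 of 15 cases in ER-MyoD wt at 24 h (14% of all genes) and higher in 0 (11.4%), with a median of -0.64. Tapbp, which loads peptides onto class I, read 346 ± 13.2 against 1245 ± 84.4 (-1.92, adjusted p = 4.27e-12). The proteasome activator gene Psme1 (-1.15, adjusted p = 8.31e-08), the class I heavy chain gene H2-D1 (-1.60, adjusted p = 7.39e-07) and the immunoproteasome gene Psmb10 (-0.89, adjusted p = 0.000175) were lower too. H2-D1 shares sequence with other class I genes, so its probe set may read several of them. In ER-MyoD RRR 4 were lower and 0 higher (median -0.29, beside 10.5% and 8.56% of all genes). From 6 h to 24 h in empty retrovirus cells 7 rose and 0 fell (median 0.45, beside 8.09% and 7.67%). Of 9 MHC class II genes, 0 were higher and 0 lower in ER-MyoD wt at 24 h (11.4% and 14% of all genes). The counts in ER-MyoD RRR were 0 and 0 as well (8.56% and 10.5%).

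Upstream of the members, 6 of 18 genes of nucleic acid and Toll-like receptor sensing were lower in ER-MyoD wt at 24 h and 1 was higher (median -0.41, beside 14% and 11.4% of all genes). The lower ones were led by the adaptor gene Myd88 (-0.92, adjusted p = 8.44e-07), the kinase genes Tbk1 (-0.88, adjusted p = 0.000159) and Ikbke (-1.60, adjusted p = 0.00148), and Ddx58, which encodes RIG-I (-0.98, adjusted p = 0.000882). Of the 18, 3 were lower and 1 higher in ER-MyoD RRR (10.5% and 8.56% of all genes). Of 15 genes for interferon receptors, JAKs, STATs and their regulators, 5 were lower and 2 higher at 24 h in ER-MyoD wt (median -0.02, beside the same shares of all genes), among them the receptor subunits Il10rb (-1.44, adjusted p = 2.16e-08) and Ifngr1 (-0.72, adjusted p = 0.00093), and in the other direction Stat3 (0.84, adjusted p = 3.9e-05). At 6 h 3 were higher and 0 lower (6.51% and 6.21% of all genes), including Socs3, which restrains JAK signalling (436 ± 86.5 against 114 ± 52.4; 1.90, adjusted p = 3.37e-07), and Ifngr1 (0.87, adjusted p = 0.000242). Interferon genes themselves, many of which are close copies that a probe set may not separate, were mostly dim, with 5 of 8 under the lowest array median. At 24 h 1 of the 8 was higher and 1 lower in ER-MyoD wt than with empty retrovirus, near the 11.4% and 14% of all genes. Ifnz read 23.3 ± 5.50 against 118 ± 23.8 in ER-MyoD wt and empty retrovirus cells (-1.67, adjusted p = 0.000586). Ifnb1 read 92.8 ± 40.6 against 51.5 ± 9.08 (0.73, adjusted p = 0.0448), the latter mean within the range of the array medians. Checks of these calls without single arrays or under other settings are not given here. In ER-MyoD RRR 0 were higher and 0 lower (8.56% and 10.5% of all genes).

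Markers of fibroblasts and of skeletal muscle also differed between these groups. Of 14 fibroblast markers, 11 were lower and 1 higher in ER-MyoD wt than with empty retrovirus at 24 h (median -1.12). Of all genes, 14% were lower and 11.4% higher. Pdgfra read 76.7 ± 36.4 against 1707 ± 245 (-4.49, adjusted p = 7.71e-10) and Dcn 2445 ± 373 against 9563 ± 1448 (-2.07, adjusted p = 2.6e-13). In ER-MyoD RRR 6 were lower and 2 higher (median -0.48, beside 10.5% and 8.56% of all genes). From 6 h to 24 h in empty retrovirus cells 11 rose and 1 fell (median 1.31, beside 8.09% and 7.67%). The summed signal of the 14 genes ranged from 41785 to 44024 in empty retrovirus arrays at 6 h and from 67410.1 to 83399 at 24 h, from 36063 to 47379 in ER-MyoD wt and from 54715 to 64604 in ER-MyoD RRR at 24 h. Between the fusions at 24 h, ER-MyoD RRR had 10 fibroblast markers higher and 0 lower (median 0.79, beside 3.34% and 2.04% of all genes). In that comparison limma called 0 of the 31 members, with 6 at an unadjusted p under 0.05, and 5.38% of all genes in either direction. Beside so small a share, 0 of 31 does not show that the fusions acted alike on the members. Summed skeletal muscle markers ranged from 50099 to 59291 in ER-MyoD wt, 34074 to 37989 in ER-MyoD RRR and 231 to 311 with empty retrovirus. The part of these markers in the differences of the interferon-stimulated genes was not tested.

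Of 20 macrophage and blood markers, 2 were higher (Csf1r, 0.64, adjusted p = 0.0128, and Itgam, 1.08, adjusted p = 0.029) and 0 lower in ER-MyoD wt than with empty retrovirus at 24 h, near the 11.4% of all genes that were higher, and the mean signal of Itgam was under the lowest array median. In ER-MyoD RRR 2 were higher and 0 lower (8.56% and 10.5% of all genes). From 6 h to 24 h in empty retrovirus cells 0 rose and 0 fell (8.09% and 7.67% of all genes). Their summed signal ranged from 879.5 to 962 at 6 h and 830.1 to 1167 at 24 h with empty retrovirus, 700.5 to 1243 in ER-MyoD wt and 1152 to 1284 in ER-MyoD RRR at 24 h, and the 24 h ranges overlapped. Of the 20 markers 10 had a mean signal under the lowest array median, including the leukocyte marker Ptprc, and none was at 0. Their part in the results was not tested. In ER-MyoD wt at 24 h, endothelial markers were higher in 1 and lower in 0 of 10 cases, and epithelial markers in 0 and 0 of 9. Of all genes, 11.4% were higher and 14% lower.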

How the data were processed

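RNA of 30 samples was hybridised to Affymetrix Mouse Genome 430 2.0 arrays, per the labels. The deposited values are 1 linear signal intensity per probe set, and from these values every array has the same trimmed mean of 150 (2% trimmed at each end). The software that made the signals, its scaling setting and any detection calls are not given in the sources used.

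Of 45101 probe sets, 64 control probe sets were left out. The rest were quantile normalised, log2(signal + 16) was taken, and 1 probe set a gene was kept among the 34945 with 1 annotated symbol, the one with the highest mean, giving 18193 genes. All 10 groups entered 1 fit in limma 3.58.1 (R 4.3.3), with moderated tests and a mean-variance trend. P-values were adjusted by Benjamini-Hochberg within each comparison over all genes, and an adjusted p under 0.05 was called. Per-array values in the text are deposited signals, and differences are on the normalised log2 scale. Probe sets with several symbols (932) or none (9160) were not named. Alternatives were median centring, the deposited scale, a pseudocount of 1, a filter on mean signal, the mean of all probe sets of a gene, a replicate block, only the groups compared, and leaving out arrays. The fit was tested on simulated data. Figures were drawn with matplotlib 3.10.9.

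The members and the other gene lists were chosen with earlier results of these data known. By rule, values at all times are given for the 8 members with the largest called differences in ER-MyoD wt minus empty retrovirus or ER-MyoD RRR minus ER-MyoD wt (Ifit3, Igtp, Parp14, Gbp2, Rtp4, Gbp3, Irf9 and Ifit2) and for Irf7, Irf9, Stat2 and B2m, and up to 4 genes with the smallest p are named per other list. Ifit1 was added after its values were seen. Replicate numbers are shared by the groups, but same-numbered arrays had correlations of their deviations from -0.107 to 0.0913, with all 3 numbers over 0.1 in 0 of 15 pairs of groups. No pairing was assumed, although for 20 of 30 arrays the most similar deviations in other groups were those of an array of the same number. Each other group held 3 arrays, of which only 1 had that number. The interaction of ER-MyoD RRR with empty retrovirus was added after the values were seen.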

Additional observations from a re-analysis of the deposited data

Results flagged for a closer look

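For 6 members the change from 6 h to 24 h differed between a fusion and empty retrovirus by limma's interaction test, in each case with the fusion moving lower relative to empty retrovirus. The 2 members in ER-MyoD wt were 6.45% of the 31, against 8.24% of all genes, and the 6 in ER-MyoD RRR were 19.4%, against 5.93%. Relative to empty retrovirus, Ifit2 changed by -1.20 in ER-MyoD wt (adjusted p = 0.00301) and by -1.06 in ER-MyoD RRR (adjusted p = 0.013), and its signal fell in both fusions while empty retrovirus cells showed no called change. Rtp4 changed by -1.44 in ER-MyoD wt (adjusted p = 0.0325) and by -1.68 in ER-MyoD RRR (adjusted p = 0.0158), where empty retrovirus cells rose and neither fusion had a called change. In ER-MyoD RRR the largest value was that of Ifit3, at -3.13 (adjusted p = 0.000565). The other values in ER-MyoD RRR were -2.05 for Bst2 (adjusted p = 0.0434), -1.50 for Gbp3 (adjusted p = 0.0143) and -1.06 for Ifi35 (adjusted p = 0.0129). Leaving out the 3 arrays set apart, among other settings, ended the calls of Bst2 and of Rtp4 in ER-MyoD wt (adjusted p up to 0.0995 and 0.115 over those settings). Other settings ended those of Rtp4 in ER-MyoD RRR, Gbp3 and Ifi35 (adjusted p up to 0.0833, 0.0756 and 0.185). Gbp3 and Ifi35 were also lost without empty retrovirus 6 h replicate 1 (adjusted p = 0.051 and 0.0503). Only Ifit2 in both fusions and Ifit3 in ER-MyoD RRR held under every setting and without each array in turn. The 2 fusions share the empty retrovirus arrays, and the ER-MyoD RRR tests were added after the values were seen.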

How the results depend on the processing

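Tests rest on 3 arrays per group, and dim members are limited by signal over background: 11 of 31 had a mean under the lowest array median. Leaving out 1 array at a time, members called ranged from 2 to 4 (ER-MyoD wt minus empty retrovirus, 6 h), 2 to 5 (12 h) and 11 to 13 (24 h), from 2 to 2, 0 to 1 and 8 to 10 for ER-MyoD RRR minus empty retrovirus, and from 0 to 1, 0 to 2 and 0 to 1 for ER-MyoD RRR minus ER-MyoD wt. They ranged from 1 to 3, 1 to 2 and 3 to 6 for ER-MyoD wt at 6, 12 and 24 h against 0 h, and from 5 to 8, 3 to 7 and 7 to 10 for 24 h against 6 h in ER-MyoD wt, ER-MyoD RRR and empty retrovirus. The interactions gave 1 to 2 (ER-MyoD wt and empty retrovirus), 0 to 1 (both fusions) and 4 to 6 (ER-MyoD RRR and empty retrovirus), and the F test 16 to 19. Other counts moved by over 1.5 times as follows, with the count as reported after "from". Median centring gave 1 from 2 for ER-MyoD RRR minus empty retrovirus at 6 h and 0 from 1 at 12 h. A pseudocount of 1 gave 5 from 3 for ER-MyoD wt minus empty retrovirus at 6 h, 0 from 1 for ER-MyoD RRR minus empty retrovirus at 12 h, 2 from 1 for ER-MyoD wt at 12 h against 0 h, and interactions of 1 from 2 (ER-MyoD wt) and 3 from 6 (ER-MyoD RRR). Keeping genes with a mean signal of at least 50 gave 1 from 2 and 0 from 1 for ER-MyoD RRR minus empty retrovirus at 6 h and 12 h, 1 from 0 and 1 from 2 for ER-MyoD RRR minus ER-MyoD wt at 6 h and 12 h, and 1 from 0 for their interaction, with fewer genes tested. The mean of all probe sets of a gene gave 1 from 2 and 1 from 0 for ER-MyoD RRR minus ER-MyoD wt at 12 h and 24 h, and 3 from 6 for the ER-MyoD RRR interaction. Fitting only the arrays of the groups compared, where the F test has no counterpart, gave 1 from 2 and 0 from 1 for ER-MyoD RRR minus empty retrovirus at 6 h and 12 h, 1 from 2 and 1 from 0 for ER-MyoD RRR minus ER-MyoD wt at 12 h and 24 h, and 2 from 7 for ER-MyoD RRR at 24 h against 6 h. Without the 3 arrays set apart, counts were 5 from 3 for ER-MyoD wt minus empty retrovirus at 6 h. They were 1 from 0 for ER-MyoD RRR minus ER-MyoD wt at 24 h and 1 from 2 for the ER-MyoD wt interaction. With the replicate number as a block, ER-MyoD wt minus empty retrovirus at 6 h had 5 members from 3, and no other count moved by over 1.5 times; for 20 of 30 arrays the most similar deviations were those of an array with the same number, a hint from the data and not from the design. Signs of called members held in all settings run except B2m in ER-MyoD RRR from 6 h to 24 h, at -0.0384 under median centring (adjusted p = 0.922). Median centring moved the median of all genes most for the ER-MyoD RRR interaction (-0.15 against -0.02). Where no cause is given above, it was not tested.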
